A study of Homo sapiens with 8 samples.

Results

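The heat shock chaperones described here are 10 genes: HSPA1A, HSPA1B, HSPA8, HSPH1, DNAJB1, BAG3, HSP90AA1, HSPB1, HSPD1, and HSPE1. They were chosen by symbol, as cytosolic chaperones driven by heat shock factor 1 (HSF1), their partner BAG3, and the mitochondrial pair HSPD1 and HSPE1. The rule uses no measured value of these genes, and the choice was made with earlier results of these data known. The RNA-sequencing table listed 60230 genes, of which 13404 had enough counts to be tested, and all 10 chaperone genes were among them. The samples came from HepG2 cells, a human liver cancer line, engineered to overexpress the drug-metabolizing enzyme CYP3A4 and kept under blasticidin. Each group had 2 samples. Control cells (DMSO) received 0.2% DMSO, and the other groups received compound 4, 5, or 6, each at its own IC50 concentration, for 24 h. The study derived the IC50 values from a viability assay with a longer exposure than 24 h. All of the compounds are phenolic antioxidants of plastic. In compound 4 a methylene bridge joins 2 phenols that carry tert-butyl and methyl groups. Compound 6 has cyclohexyl groups in place of the tert-butyl groups. In compound 5 both di-tert-butylphenols sit on the same carbon of an ethane unit. The labels give the samples of each group as day 1 and day 2, which are called replicate 1 and replicate 2 here, as the study's methods give 1 exposure time. They do not say whether these were separate cultures, so the p-values measure the spread between these samples, which may be technical.

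Chaperones bind unfolded stretches of other proteins and keep them from clumping until they fold. HSP70 proteins do this in cycles of ATP hydrolysis that J-domain proteins such as DNAJB1 start and nucleotide exchange factors such as HSPH1 and BAG3 end. When unfolded proteins build up, HSF1 is released from chaperones, binds heat shock elements in promoters, and raises transcription of many chaperone genes, which is why HSPA1A, HSPA1B, and DNAJB1 mRNA serve as readouts of proteotoxic stress in liver cells. The question was whether any of the plastic antioxidants moved these genes away from their level in DMSO.

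The upstream sequences are shown first because the heat shock element is the feature that ties these genes to HSF1. RefSeq promoter windows (GRCh38.p14) were found for all 10 genes, 14 windows in all, and the 250 bases before each start site were searched on both strands. The element is built of units GAA and TTC in turn, with any 2 bases (NN) between units. An element of 2 units was searched as GAA-NN-TTC or TTC-NN-GAA, and an element of 3 units as GAA-NN-TTC-NN-GAA or TTC-NN-GAA-NN-TTC. The forms of 2 units each read the same on both strands, those of 3 units are read as each other, and an element of 3 units always overlaps elements of 2 units. At least 1 element of 2 units was found in 7 of the 14 windows, each of a different gene, against 11.6% of 35116 windows of all genes. An element of 3 units was found in 3 of the 14, those of HSPA8, HSP90AA1, and HSPD1, against 0.441% of all windows. Many of these genes were chosen as driven by HSF1, so a higher share than in all windows is built into the choice. It is given as a description and not as a finding. No match was found in these windows of HSPH1, HSPE1, and BAG3, which says only that these letters are not in that stretch. A match is a run of letters and was not tested as a binding site.

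The stretches that hold the matches are written below on the strand of the gene, 5′ to 3′, with the matches in capitals. Some are shorter than the search window, because they stop before the principal transcript start of GENCODE 29. For HSPD1 and HSP90AA1 only the run of matches is written. That annotation places the HSPD1 run also in the 5′ UTR of HSPE1 on the other strand. The HSP90AA1 run precedes a RefSeq start that lies inside the gene, past the principal GENCODE start, and falls in the 5′ UTR of another HSP90AA1 transcript. HSPA1A is from chr6:31815293-31815463 (plus strand), HSPA1B from chr6:31827488-31827734 (plus), HSPA8 from chr11:123062336-123062386 (minus), and DNAJB1 from chr19:14518421-14518647 (minus). HSPB1 is from chr7:76302423-76302543 (plus), HSPD1 from chr2:197500068-197500085 (minus), and HSP90AA1 from chr14:102087105-102087132 (minus).
HSPA1A: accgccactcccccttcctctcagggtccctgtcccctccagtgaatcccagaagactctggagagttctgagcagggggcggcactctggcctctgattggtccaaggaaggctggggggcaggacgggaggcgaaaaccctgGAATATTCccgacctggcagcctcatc
HSPA1B: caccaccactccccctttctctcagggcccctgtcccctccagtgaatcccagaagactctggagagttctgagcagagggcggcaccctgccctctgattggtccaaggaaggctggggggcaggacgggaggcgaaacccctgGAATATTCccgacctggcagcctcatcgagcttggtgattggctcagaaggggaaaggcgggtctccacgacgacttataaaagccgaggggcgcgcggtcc
HSPA8: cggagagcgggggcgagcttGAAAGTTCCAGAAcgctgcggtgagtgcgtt
DNAJB1: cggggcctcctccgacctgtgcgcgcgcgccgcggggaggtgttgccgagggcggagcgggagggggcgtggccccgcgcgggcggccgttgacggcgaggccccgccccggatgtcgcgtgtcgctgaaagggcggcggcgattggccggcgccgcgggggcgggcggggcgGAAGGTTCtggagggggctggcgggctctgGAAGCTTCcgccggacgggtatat
HSPB1: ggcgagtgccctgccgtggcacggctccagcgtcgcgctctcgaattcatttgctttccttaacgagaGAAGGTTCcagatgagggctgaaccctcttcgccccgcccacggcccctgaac
HSPD1: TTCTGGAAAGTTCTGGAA
HSP90AA1: TTCCGGAAGGTTCgggaggcTTCTGGAA
HSPA1A and HSPA1B carried the same element, GAATATTC, and over the 250 bases upstream of their start sites 235 of 251 aligned columns were identical (93.6%). DNAJB1 had 2 elements of 2 units, and HSPD1 had a run in which elements of 3 units overlapped. Another HSPA8 element of 3 units lies past the principal GENCODE start and is not printed.

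**Figure D1:**
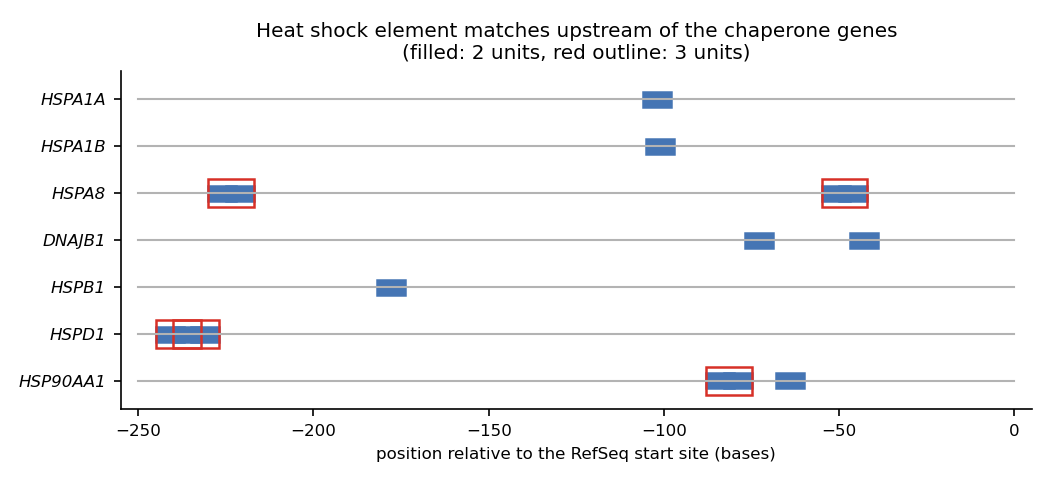
Matches to the heat shock element in the 250 bases upstream of the RefSeq start site of the 7 genes that had one, with the distance from the start site in bases on the x axis. Filled boxes are elements of 2 units and red outlines elements of 3 units, which appear for HSPA8, HSPD1, and HSP90AA1.

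The libraries held 9472261 to 13308975 estimated counts each, and the 10 genes together took 0.6092% to 0.7127% of them. Levels are given below as CPM, the usual depth-scaled count, with the libraries scaled by TMM. All 8 hepatocyte markers examined were detected in every sample, with a summed level of 39100 to 40900 CPM in DMSO and 30500 to 37500 CPM in the treated samples. The markers of other cell types were near 0, with sums of at most 8.63 CPM for 5 fibroblast genes (3 of them at 0 in every sample), 2.06 CPM for 4 endothelial genes, and 3.65 CPM for 4 blood genes. CYP3A4 itself was at 198 to 206 CPM in DMSO, 215 to 287 CPM under compound 4, 370 to 421 CPM under compound 5, and 170 CPM in both samples under compound 6. Replicate 1 of compound 4 and replicate 1 of compound 5 are marked as merged in the labels, and their names join a pair of S numbers where those of the other samples hold a single S number. The labels do not say what these numbers stand for. In these bulk samples, fewer cells making a transcript and less of it per cell cannot be told apart.

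In DMSO the mitochondrial chaperonin HSPD1 was the most abundant of the genes per length. Its mean level was 1033 CPM per kilobase of principal transcript, followed by HSPA8 at 575.9, HSP90AA1 at 420.8, and HSPE1 at 400.0 CPM per kilobase. HSP90AA1 spanned 391.5 to 450.1 and HSPE1 385.9 to 414.1 CPM per kilobase over the DMSO samples, so this pair did not differ beyond its spread. Well below them stood HSPA1B at 94.01, HSPB1 at 92.88, DNAJB1 at 75.77, and HSPA1A at 74.69 CPM per kilobase. HSPA1B and HSPB1 overlapped in range, as did DNAJB1 and HSPA1A, while HSPB1 (from 90.33) lay above DNAJB1 (up to 78.18). HSPH1 at 25.28 and BAG3 at 10.79 CPM per kilobase were the lowest. Across all 8 samples the highest level of a gene was between 1.1 times (HSPD1) and 2.22 times (HSPA1A) its lowest.

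None of the 10 chaperone genes passed the test against DMSO with any of the compounds (edgeR, Benjamini-Hochberg adjusted p under 0.05 over all genes). The share of all tested genes called was 11.9% under compound 4, 28.1% under compound 5, and 4.4% under compound 6. At an unadjusted p under 0.05 edgeR gave 1, 4, and 3 of the 10 genes under compounds 4, 5, and 6, beside 27%, 41.5%, and 20% of all tested genes. DESeq2 called none under compound 4, HSPA8 under compound 5, and HSP90AA1 under compound 6, beside 10.9%, 22.5%, and 5.85% of all genes to which it gave an adjusted p. The comparisons with DMSO share the same 2 control samples. Log2 fold changes of the 10 genes ran from -0.24 to 0.34 under compound 4, from -0.41 to 0.27 under compound 5, and from -0.45 to 0.16 under compound 6. Their medians were 0.14, -0.11, and -0.15, beside medians over all tested genes of 9.88e-05, -0.03, and 0.0028. The 95% intervals reached 0.21 to 0.46 to either side of the estimate on the log2 scale, not adjusted for the number of genes, and a change had to be larger than its half-width to be called after adjustment. Samples of the treated group and of DMSO did not overlap for 4 of the 10 genes under compound 4, 7 under compound 5, and 6 under compound 6, beside 54.6%, 70.1%, and 52.9% of all tested genes.

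HSPA1A and HSPA1B encode the stress-inducible HSP70 and lie next to each other in the major histocompatibility complex (chr6:31815464-31817946 and chr6:31827735-31830255, each 1 exon, GRCh38). HSPA1A was at 148.4 and 222.5 CPM in DMSO (replicates 1 and 2), 193.7 and 275.7 under compound 4, 141.2 and 168.7 under compound 5, and 124.3 and 152.5 under compound 6. HSPA1B was at 195.5 and 278.5 CPM in DMSO, 247 and 308.7 under compound 4, 171.1 and 186.2 under compound 5, and 180.6 and 182.6 under compound 6. For both genes the compound 4 and DMSO samples overlapped, and for HSPA1B all samples under compounds 5 and 6 were below both DMSO samples. Against DMSO, HSPA1A differed by 0.34 (log2, SE 0.208, adjusted p 0.333) under compound 4, -0.26 (SE 0.209, adjusted p 0.376) under compound 5, and -0.42 (SE 0.209, adjusted p 0.296) under compound 6 in edgeR. HSPA1B differed by 0.23 (SE 0.16, adjusted p 0.399), -0.41 (SE 0.161, adjusted p 0.0807), and -0.39 (SE 0.161, adjusted p 0.214) under compounds 4, 5, and 6. In the fit blocked by replicate number, where 27.4% of all tested genes were called, the fall of HSPA1B under compound 5 was called at -0.39 (edgeR, adjusted p 0.0487), just past the threshold.

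These genes cannot be read as independent measurements. Of the 31-base words of HSPA1A transcripts, 73.6% also occurred in HSPA1B, so the split of reads between them rests on the quantifier. HSPA1A took 40.8% to 47.5% of their summed counts in the 8 samples. Summed to 1 value, the pair stood at 343.5 and 500.4 CPM in DMSO, 440.2 and 583.7 under compound 4, 312 and 354.6 under compound 5, and 304.5 and 334.7 under compound 6. The summed difference from DMSO was 0.28 (95% interval -0.12 to 0.67) under compound 4, -0.34 (-0.74 to 0.05) under compound 5, and -0.40 (-0.80 to -0.01) under compound 6 on the log2 scale, with edgeR adjusted p of 0.356, 0.176, and 0.243. The DMSO samples themselves lay apart by 0.585 for HSPA1A and 0.51 for HSPA1B on the log2 scale, a gap between replicates whose direction all groups shared. Set against DMSO of the same replicate number, HSPA1A differed by 0.384 and 0.309 (replicates 1 and 2) under compound 4, -0.0719 and -0.399 under compound 5, and -0.256 and -0.545 under compound 6. HSPA1B differed in the same direction in both replicates for each compound as well. In the fit blocked by replicate number the summed difference was 0.29 (95% interval 0.02 to 0.56, adjusted p 0.163), -0.32 (-0.59 to -0.05, adjusted p 0.0747), and -0.38 (-0.65 to -0.11, adjusted p 0.117) for compounds 4, 5, and 6 in edgeR. None of these unadjusted intervals held 0, and none of the differences was called, so the call of HSPA1B alone under compound 5 was not kept for the summed pair.

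HSPA8 encodes the constitutive cytosolic HSC70 (chr11:123057489-123063230, minus strand). It was at 1361 and 1476 CPM in DMSO, 1688 and 1781 under compound 4, 1619 and 1804 under compound 5, and 1512 and 1665 under compound 6. All 6 treated samples were above both DMSO samples, a pattern seen in this direction in 12.3% of all tested genes. In edgeR the log2 fold change was 0.29 (SE 0.106, adjusted p 0.105) under compound 4, 0.27 (SE 0.106, adjusted p 0.0783) under compound 5, and 0.16 (SE 0.106, adjusted p 0.431) under compound 6. DESeq2 called it under compound 5 at 0.30 (adjusted p 0.0239).

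DNAJB1 encodes the J-domain protein that loads clients onto HSP70 (chr19:14514770-14529770, minus strand). It was at 166.1 and 177 CPM in DMSO, 190.9 and 198.9 under compound 4, 167.1 and 209.4 under compound 5, and 163.7 and 176.5 under compound 6. Only the compound 4 samples were both above DMSO. The log2 differences were 0.18, 0.13, and -0.01 (SE 0.12 in each), with edgeR adjusted p of 0.362, 0.427, and 0.972. HSPH1 encodes HSP110, a nucleotide exchange factor of HSP70 (chr13:31134974-31162388, minus strand). It was at 111.2 and 151.3 CPM in DMSO, 137.4 and 144.8 under compound 4, 139 and 145.3 under compound 5, and 112.6 and 131.8 under compound 6. Every treated sample lay between the DMSO samples, and the edgeR log2 differences of 0.10, 0.11, and -0.10 had adjusted p of 0.691, 0.583, and 0.748. BAG3 encodes another exchange factor, which steers HSP70 clients to autophagy (chr10:119651370-119677819, plus strand). It was at 25.5 and 30 CPM in DMSO, 26.68 and 29.33 under compound 4, 34.46 and 32.5 under compound 5, and 27.21 and 26.35 under compound 6. Both compound 5 samples were the highest, with a log2 fold change of 0.27 (SE 0.127, 95% interval -0.01 to 0.55, edgeR adjusted p 0.136).

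HSP90AA1 encodes the inducible cytosolic HSP90 alpha (chr14:102080738-102139699, minus strand). It was at 1374 and 1580 CPM in DMSO, 1115 and 1393 under compound 4, 1162 and 1314 under compound 5, and 1081 and 1079 under compound 6. The samples under compounds 5 and 6 were all below DMSO, and compound 4 overlapped it. The log2 fold change was -0.24 (SE 0.128, adjusted p 0.272) under compound 4, -0.25 (SE 0.128, adjusted p 0.158) under compound 5, and -0.45 (SE 0.128, adjusted p 0.0728) under compound 6 in edgeR. The interval under compound 6 ran from -0.74 to -0.17, and DESeq2 called this fall at -0.45 (adjusted p 0.0097). HSP90AB1, the constitutive HSP90 beta, was at 2935 to 2991 CPM in DMSO and 2967 to 3208 CPM in the treated samples, and was not called with any compound (edgeR adjusted p 0.989, 0.467, and 0.943 under compounds 4, 5, and 6). It was named here after its values were seen.

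HSPB1 encodes the small heat shock protein HSP27, which holds unfolded proteins without ATP (chr7:76302544-76304295, plus strand). It was at 86.74 and 82.11 CPM in DMSO, 94.74 and 104.1 under compound 4, 67.18 and 69.24 under compound 5, and 81.33 and 66.37 under compound 6. The compound 4 samples were all above DMSO, and those of compounds 5 and 6 all below. The log2 fold changes were 0.24 (SE 0.119, adjusted p 0.231), -0.31 (SE 0.12, adjusted p 0.078), and -0.19 (SE 0.12, adjusted p 0.403) in edgeR.

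HSPD1 and HSPE1 encode HSP60 and its lid HSP10, which together form the folding chamber of mitochondria. They lie head to head on chromosome 2 and overlap there, HSPD1 on the minus strand (chr2:197486581-197516737) and HSPE1 on the plus strand (chr2:197499994-197503457). Whether the quantification used the strand of the reads is not given in the sources used here, so reads from the overlap cannot be placed with certainty. HSPD1 was at 2569 and 2503 CPM in DMSO, 2395 and 2560 under compound 4, 2606 and 2585 under compound 5, and 2409 and 2362 under compound 6. Its log2 differences of -0.03, 0.03, and -0.09 had 95% intervals within -0.30 and 0.24, the narrowest among the 10 genes.

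HSPE1 was at 393.4 and 366.6 CPM in DMSO, 303 and 358.2 under compound 4, 319.3 and 267.6 under compound 5, and 325.6 and 257.8 under compound 6. All 6 treated samples were below both DMSO samples, as for 14.3% of all tested genes. The log2 fold changes were -0.20 (SE 0.14, adjusted p 0.396), -0.37 (SE 0.14, adjusted p 0.0694), and -0.38 (SE 0.14, adjusted p 0.156) under compounds 4, 5, and 6 in edgeR. HSPE1 counts were 15.3% and 14.6% of HSPD1 counts in DMSO. With the compounds this share was 12.7% and 14%, 12.3% and 10.4%, and 13.5% and 10.9%, in the order of compounds 4, 5, and 6. The share was lower in every treated sample than in DMSO, and this was not tested. The readthrough transcript HSPE1-MOB4, which shares sequence with HSPE1, had 31 to 62 counts in 7 samples and 0 in replicate 1 of compound 5. That 0 allows up to 0.275 CPM, counting error only.

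**Figure D2:**
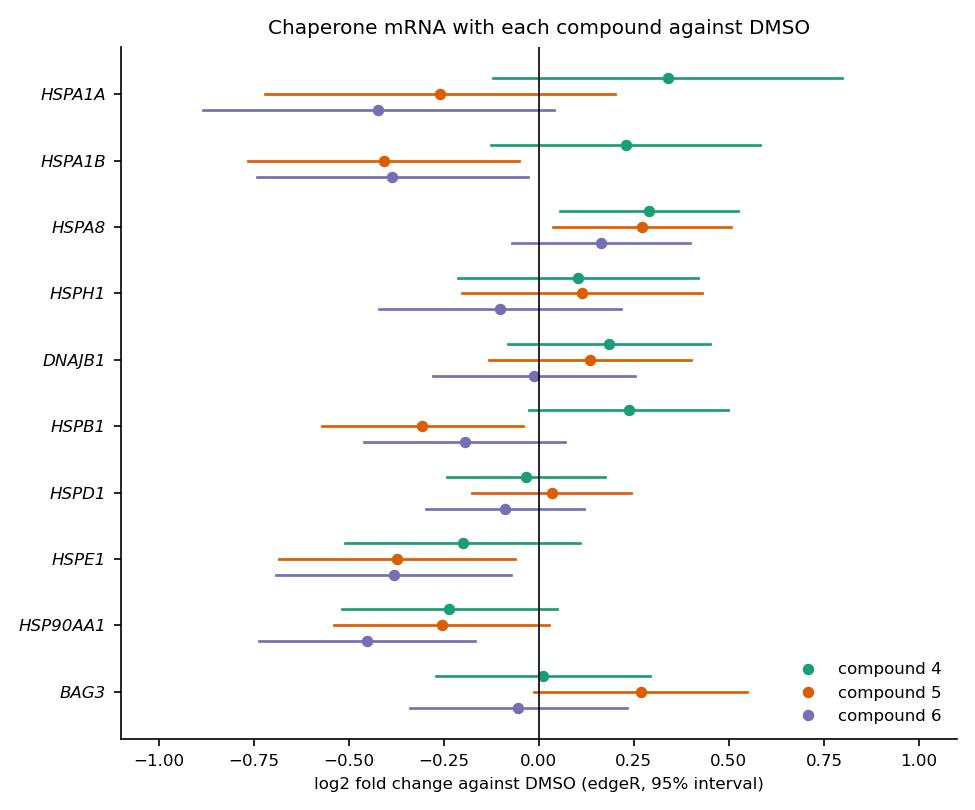
Log2 fold change of the 10 chaperone mRNAs against DMSO under compounds 4, 5, and 6 (points, x axis) with 95% intervals from edgeR (bars), 2 samples a group. Estimates lie between -0.45 (HSP90AA1, compound 6) and 0.34 (HSPA1A, compound 4), and the bars of HSPD1 are the narrowest.

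Annotated pseudogenes of HSPE1, HSPD1, DNAJB1, HSPA8, and HSPB1 summed to at most 0.271% of the counts of their gene, the highest share being that of HSPB1. HSP90AA1 shared 25.6% of its 31-base words with other genes, 16.8% with the pseudogene HSP90AA2P, which had 0 to 3 counts a sample.

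The compounds were also compared with each other, each at its own IC50 and so not at a matched dose. Between compounds 5 and 4, 2 of the 10 genes were called, both lower under compound 5, beside 7.04% of all tested genes called lower (13.9% in either direction). HSPB1, at 67.18 and 69.24 CPM under compound 5 and 94.74 and 104.1 under compound 4, was lower, with a log2 difference of -0.54 (SE 0.119, edgeR adjusted p 0.0182). HSPA1B, at 171.1 and 186.2 CPM against 247 and 308.7, was lower, with a difference of -0.64 (SE 0.161, edgeR adjusted p 0.0299). HSPA1A differed by -0.60 (SE 0.208, adjusted p 0.0777) in edgeR, and in the fit blocked by replicate number it was called too (-0.58, adjusted p 0.0181), where 12.2% of all tested genes were called. DESeq2 called HSPA1A (-0.563, adjusted p 0.0293), HSPA1B (-0.601, adjusted p 0.00314), and HSPB1 (-0.509, adjusted p 0.00696), beside 13.5% of the genes to which it gave an adjusted p. Summed, HSPA1A and HSPA1B were lower under compound 5, with a difference of -0.62 (SE 0.179, edgeR adjusted p 0.0448). Neither edgeR call was kept without replicate 2 of compound 4, or without replicate 1 or 2 of compound 5. There 0 of the 10 genes were called, and the share of all tested genes called was also lower, at 4.06%, 0.78%, and 1.23%. For the other 7 genes the log2 difference between compounds 5 and 4 ran from -0.17 (HSPE1) to 0.26 (BAG3).

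Compounds 4 and 6 differ by the tert-butyl and cyclohexyl groups. None of the 10 genes was called between them in edgeR, beside 0.0448% of all tested genes, that is 6 genes. At an unadjusted p under 0.05 there were 3 of the 10, beside 9.81% of all tested genes. All 10 log2 differences were positive, from 0.05 (HSPD1) to 0.76 (HSPA1A), with a median of 0.20 beside -0.0055 over all tested genes. The differences were 0.76 for HSPA1A (95% interval 0.30 to 1.22, adjusted p 0.314), 0.61 for HSPA1B (0.26 to 0.97, adjusted p 0.281), and 0.43 for HSPB1 (0.17 to 0.69, adjusted p 0.314) in edgeR. Both compound 4 samples were above both compound 6 samples for 7 of the 10 genes, these 3 included, and samples did not overlap in either direction for 36.5% of all tested genes. DESeq2 called HSPA1A (0.755, adjusted p 0.0215) and HSPA1B (0.608, adjusted p 0.027), beside 0.557% of the genes to which it gave an adjusted p. Between compounds 5 and 6 none of the 10 was called, beside 9.91% of all tested genes, with log2 differences from -0.11 (HSPB1) to 0.32 (BAG3, 95% interval 0.04 to 0.60, edgeR adjusted p 0.133). BAG3 alone had an unadjusted p under 0.05, beside 27.5% of all tested genes.

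The replicates of a group were also compared. HSPA1A, HSPA1B, HSPA8, HSPH1, and DNAJB1 were higher in replicate 2 than in replicate 1 in all 4 groups, 5 of the 10 genes, beside 7.36% of all tested genes. This was noticed after the values were seen. For HSPA1A the log2 ratio of replicate 2 to replicate 1 was 0.585 in DMSO, 0.51 under compound 4, 0.26 under compound 5, and 0.295 under compound 6. For HSPA1B it was 0.51, 0.32, 0.12, and 0.02, and for HSPH1 0.45, 0.08, 0.06, and 0.23, in the same order. In the blocked fit, HSPA1A was higher in replicate 2 by 0.41 (SE 0.0804, edgeR p 0.000572). This was not called after adjustment over all genes (edgeR, adjusted p 0.574). With no filter on low counts it was called, as given in the last section. In the blocked fit with the main filter none of the 10 genes was called, beside 0.0149% of all tested genes, that is 2 genes. An unadjusted p under 0.05 was given to 4 of the 10, beside 5.42% of all tested genes. The time label of the samples reads day 1 or day 2, and the study's methods give a single exposure of 24 h. The label was read as the day of the replicate, and if it marks the time after treatment instead, these ratios compare times.

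**Figure D3:**
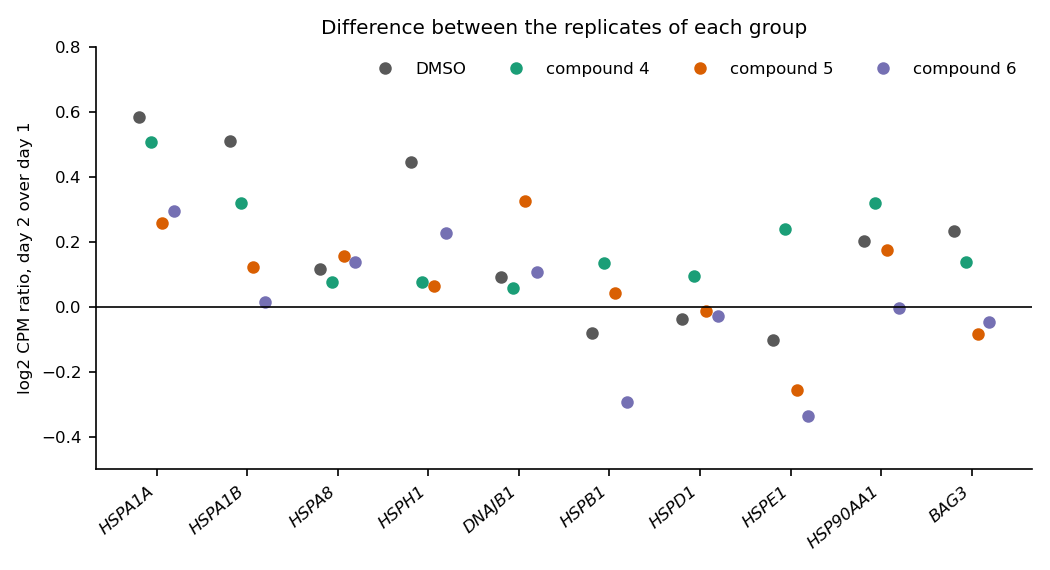
Log2 ratio of the CPM of replicate 2 (day 2) to replicate 1 (day 1) for each chaperone gene in each of the 4 groups (points, colored by treatment), with a line at 0. The points of HSPA1A, HSPA1B, HSPA8, HSPH1, and DNAJB1 all lie above 0, up to 0.585 for HSPA1A in DMSO, and HSPE1 reaches -0.34 under compound 6.

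Over the 8 samples, log2 CPM of HSPA1A and HSPA1B had a Pearson r of 0.945, and HSPA8 and DNAJB1 of 0.807, while HSPA8 and HSPE1 had -0.654. These are descriptions over samples that share libraries and depth, and HSPA1A and HSPA1B also share reads. The genes whose level most resembled that of DNAJB1, among 9305 candidates, were FBXO31 (r 0.916), GFER (0.904), and DUS3L (0.895). Those most like HSPD1 were PITHD1 (0.981), SRSF9 (0.98), and MAGOH (0.973). These are the highest values among many candidates over only 8 samples, where high values arise by selection. The highest level of HSPD1 was also only 1.1 times its lowest, so no shared regulation can be read from them.

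The wider folding network was described through 6 lists of related genes. Of their 80 tested genes, edgeR called 19 under compound 5 (23.8%, beside 28.1% of all tested genes), 17 higher and 2 lower. It called 3 under compound 4 (3.75%, beside 11.9%) and none under compound 6 (beside 4.4%). Of the heat shock factor genes HSF1, HSF2, and HSF4 and the gene of a factor-binding protein, HSBP1, only HSF1 was called, higher under compound 5. Its mRNA was at 70.2 and 68.13 CPM in DMSO and at 88.91 and 98.52 under compound 5 (log2 fold change 0.44, SE 0.102, edgeR adjusted p 0.00967). HSF1 is regulated mainly at the protein level, which was not measured.

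Among 21 other HSF1-responsive genes, 17 were tested. Under compound 4, 1 was higher and none lower (5.88% called, beside 11.9% of all tested genes), and under compound 5, 3 were higher and 1 lower (23.5%, beside 28.1%). In the fit blocked by replicate number 4 were higher and 1 lower under compound 5, beside 27.4% of all tested genes. The medians were 0.14, 0.09, and -0.12 under compounds 4, 5, and 6. ZFAND2A, an arsenite-inducible partner of the proteasome, was at 60.94 and 57.37 CPM in DMSO, 84.82 and 93.92 under compound 4, 103.1 and 114.3 under compound 5, and 70.69 and 91.41 under compound 6. It rose by 0.60 (log2, SE 0.135, edgeR adjusted p 0.0169) under compound 4 and 0.88 (SE 0.135, adjusted p 0.00119) under compound 5. Under compound 5, CACYBP, a partner of the ubiquitin ligase SIAH1, fell by 0.435 (edgeR adjusted p 0.017). HSPA6, CRYAB, HSPB8, and DNAJA4 were too low to test. HSPA6, the HSP70 gene that is near silent without stress, had 0 counts in all 8 samples, which allows up to 0.234 to 0.312 CPM at these depths. It was named after its values were seen.

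The cofactors of HSP70 and HSP90 (20 genes tested) included none called under compound 4 and 3 higher under compound 5 (15% called, beside 28.1% of all tested genes), namely DNAJC2 (log2 fold change 0.40, edgeR adjusted p 0.0461), BAG6 (0.38, adjusted p 0.0177), and DNAJA2 (0.31, adjusted p 0.0323). Of 14 subunits of the chaperonin TRiC and its partner prefoldin, PFDN2 rose by 0.48 (edgeR adjusted p 0.0246) and PFDN1 fell by 0.40 (adjusted p 0.0297) under compound 5, 14.3% called beside the same 28.1%.

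Of 15 other genes of mitochondrial folding and proteolysis, 5 were higher under compound 5 and none lower (33.3% called, beside 28.1% of all tested genes). GRPEL2, an exchange factor of the mitochondrial HSP70, was at 22.05 and 24.33 CPM in DMSO and 41.15 and 45.92 under compound 5 (log2 fold change 0.91, SE 0.127, edgeR adjusted p 0.000737). HSPA9, the mitochondrial HSP70 itself, was at 557.7 and 578.9 CPM in DMSO and 817.7 and 851.2 under compound 5 (0.55, SE 0.118, adjusted p 0.00646). The protease gene LONP1 rose by 0.47 (edgeR adjusted p 0.0268).

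Of 10 chaperone genes of the endoplasmic reticulum (ER), 4 were higher under compound 5 and none lower (40% called, beside 28.1% of all tested genes), and 1 was higher and 1 lower under compound 4 (20%, beside 11.9%). DNAJB9, an ER J-domain protein induced by the unfolded protein response, was at 20.18 and 22.6 CPM in DMSO, 37.54 and 40.17 under compound 4, 80.02 and 73.87 under compound 5, and 24.19 and 31.62 under compound 6. It rose by 0.86 (log2, SE 0.144, edgeR adjusted p 0.00414) under compound 4 and 1.84 (SE 0.142, adjusted p 5.75e-05) under compound 5. HYOU1 and CANX rose by 0.57 and 0.50 under compound 5 (edgeR adjusted p 0.00163 and 0.00489), and DNAJB11 fell by 0.47 under compound 4 (adjusted p 0.0316).

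**Figure D4:**
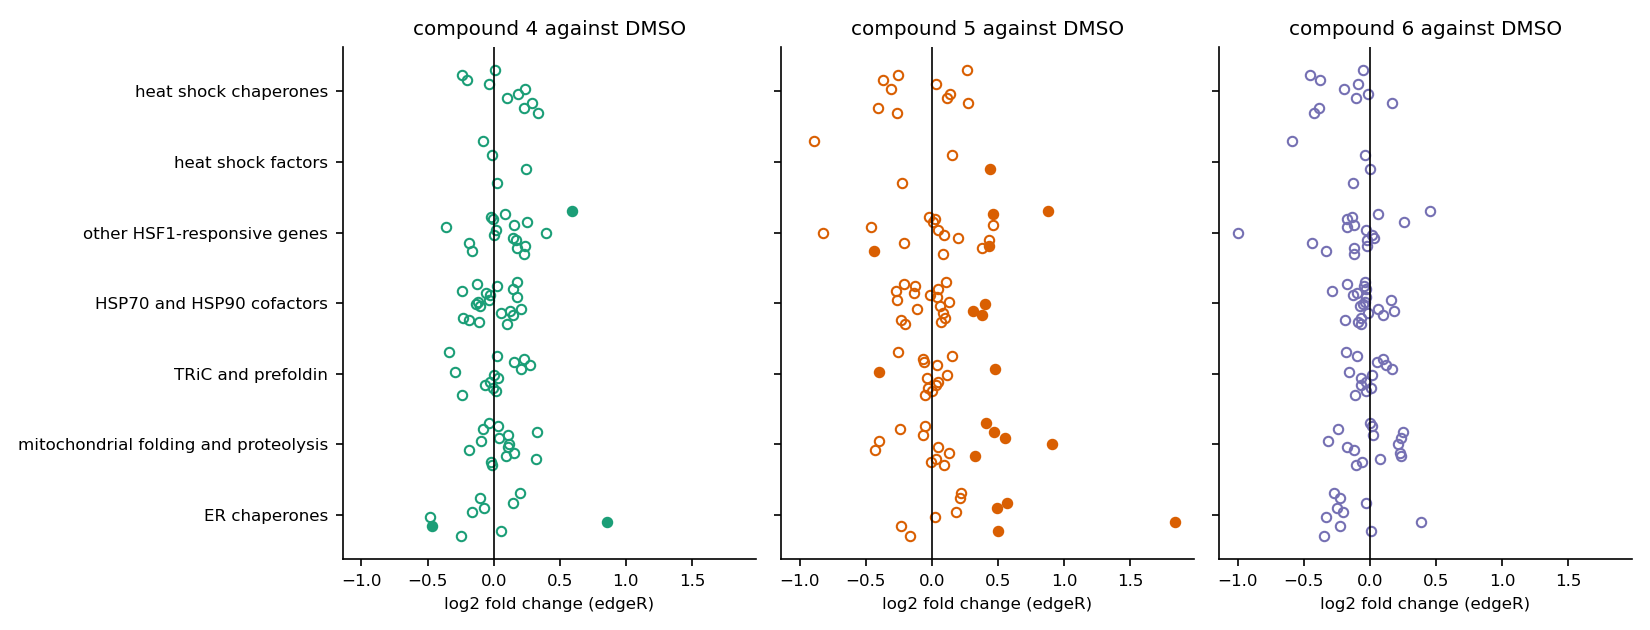
Log2 fold change against DMSO (x axis) of the 10 heat shock chaperones and of the 6 lists of related folding genes (rows), 1 point a tested gene, filled where called by edgeR. No point of the heat shock chaperones is filled, and under compound 5 the filled points include DNAJB9 at 1.84.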

How the data were processed

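RNA from 8 samples of CYP3A4-overexpressing HepG2 cells was sequenced after directional library preparation. The authors quantified transcripts with Salmon 1.5.0 on a GENCODE index (GRCh38) and used tximeta to reach gene level. Estimated counts per gene were deposited, which the table holds as whole numbers, not scaled for depth. Symbols were matched by Ensembl identifier (60089 of 60230). Lengths and shared 31-base words came from GENCODE 29, an earlier release than the index.

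Counts were analyzed in R 4.3.3 with edgeR 4.0.16 (TMM, filterByExpr, quasi-likelihood F-test on 4 groups in 1 fit of all 8 samples, Benjamini-Hochberg adjustment over 13404 genes, called under 0.05) and DESeq2 1.42.0 as an alternative. The members and lists were chosen with earlier results of these data known. Named genes were the 10 members, up to 3 called genes with the largest change in each list and comparison, the 3 genes most correlated with DNAJB1 and HSPD1 (mean CPM of at least 10), genes sharing sequence with a member, and others where said. A gene that this rule would name is not reported here. The replicate numbers are the days of the labels, which every group shares, and served as a block in an alternative fit. Other alternatives varied scaling, filter, cutoff, the samples in the fit, and the summing of near-identical genes, or left out each sample. Deviations of samples of the same number had a correlation between -0.0826 and 0.16 over all genes for the 6 pairs of groups, and between 0.159 and 0.752 over the 10 members. Replicates differed beyond sampling noise in every group (chi-square per degree of freedom 5.512 to 17.16). On simulated data in which 200 genes had a log2 change of 1, the test recovered 67.5% of them for compound 4, 72% for compound 5, and 73.5% for compound 6 against DMSO, with 8.78%, 10%, and 10.4% false calls (13225, 13196, and 13227 genes). An exact permutation test of 2 against 2 samples cannot give a p below 0.333 and was not used.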

Additional observations from a re-analysis of the deposited data

How the results depend on the processing

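The count of heat shock chaperones called against DMSO was 0 with compound 4 under every alternative run. With compound 5 it became 1 with DESeq2, 3 with upper-quartile scaling, and 3 with library size alone. It became 3 with no filter on low counts, 1 with the replicate block, and 4 with only the groups compared in the fit. The genes were HSPA1B, HSPA8, HSPB1, and HSPE1, and these settings called 22.5%, 29.6%, 30.4%, 19.2%, 27.4%, and 39.5% of all genes tested under them. With compound 6 it became 1 with DESeq2, 4 with no filter, and 1 with only the groups compared (5.85%, 6.34%, and 6.78% of all genes). Leaving out each sample in turn also changed the counts with compounds 5 and 6, along with the share of all genes called. Between compounds 5 and 4 it was 0 at a cutoff of 0.01 (2.08% of all genes), 3 with DESeq2, no filter, and the replicate block (13.5%, 12.4%, and 12.2%), HSPA1A being the added gene with DESeq2 and the block, and 0 to 3 in leaving out samples (0.78% to 19.4%). Between compounds 4 and 6 it was 2 with DESeq2 and 2 with no filter (0.557% and 1.29% of all genes). The related folding genes called fell to 1 with compound 4 and to 9 with compound 5 at a cutoff of 0.01 (4.41% and 13.5% of all genes), and ranged from 0 to 4 and from 7 to 19 in leaving out samples. With compound 6 they became 1 with DESeq2 and 3 with no filter (5.85% and 6.34% of all genes). They became 1 with the replicate block and 1 with only the groups compared (3.72% and 6.78%). Leaving out a sample also changed the counts of folding genes with each compound, along with the share of all genes called. The causes were not tested.

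The pairing by replicate number, taken from the day in the labels, changed no member's call beyond HSPA1B and HSPA1A, given with their values. Library size alone moved the median of all genes by -0.105 with compound 5, and upper-quartile scaling by -0.086. Of the log2 fold changes, BAG3 with compound 4 turned to -0.0071 with upper-quartile scaling and -0.0293 with library size alone, HSPD1 with compound 5 to -0.0527 and -0.0712, and DNAJB1 with compound 6 to 0.00158 with at least 10 counts required in every sample. Leaving out a sample also turned the sign of some, with ranges of -0.0955 to 0.345 (HSPH1), -0.0673 to 0.015 (HSPD1), and -0.0935 to 0.137 (BAG3) with compound 4, -0.494 to 0.0664 (HSPA1A), -0.0628 to 0.358 (HSPH1), and -0.0349 to 0.321 (DNAJB1) with compound 5, and -0.288 to 0.139 (HSPH1), -0.0675 to 0.0701 (DNAJB1), and -0.146 to 0.0712 (BAG3) with compound 6. None of these was called. Other values moved by over 1.5 times without a change of sign. HSPA1A, for example, ranged from 0.0761 to 0.663 and HSPA1B from 0.00168 to 0.508 and HSP90AA1 from -0.391 to -0.0832 with compound 4, HSPA1B from -0.613 to -0.126 with compound 5, and HSPA1A from -0.665 to -0.0983 and HSPA1B from -0.599 to -0.106 with compound 6. Over all genes, the 590 called with compound 6 became 1441 with no filter and 92 at a cutoff of 0.01. Leaving out a sample left an arm with 1 sample, assumed to vary like the other groups, and gave 318 to 1693, 1604 to 4488, and 0 to 1070 calls over all genes with compounds 4, 5, and 6. The difference of HSPA1A between replicates, an alternative chosen after seeing the data, was called with no filter (0.43, edgeR adjusted p 0.0162). With the main filter its adjusted p was 0.574 in the blocked edgeR fit. The share of all genes called between replicates with no filter is not given here, so this call cannot be set beside it. Intervals are not adjusted for the number of genes, so the limit of the test at 2 samples a group is wider than they are.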
